A study of Mus musculus with 10 samples.

Results

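Uncoupling proteins and effector genes of thermogenic fat were followed mouse by mouse in subcutaneous white fat from the inguinal-femoral depot of 10 female mice. The set is a list of 10 genes chosen by name: Ucp1, Ucp2, Ucp3, Cidea, Cox7a1, Cox8b, Dio2, Elovl3, Kcnk3 and Otop1. Of these, 9 were measured among 19659 genes, each by 1 probe set, and Ucp2 was not analysed here. The list was drawn up with the genotype differences of these data known. Those differences are therefore given as a description, with standard errors and 95% intervals. Where the members' calls in the fit over all genes are counted, the count is no independent test of them.

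The FF group held 5 mice with 2 Fat-line alleles at Fob3a, an obesity locus. The VV group held 5 mice with 2 V-line alleles there, for which the labels also use the name Lean-line allele. All were untreated F2 females aged 14 weeks on a chow diet. The V line is a congenic line bred by repeated backcrossing to the Fat line, with other obesity loci bred out by markers, so both groups share a largely Fat-line genome; no other genotype of the mice is given in the sources used here. Each array was hybridised with the RNA of 1 animal, and all values are log2 intensities normalised between arrays.

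Brown and beige adipocytes release energy as heat. Norepinephrine from sympathetic nerves starts lipolysis, the fatty acids activate UCP1 in the inner mitochondrial membrane, and UCP1 lets protons return to the matrix without making ATP. White subcutaneous fat of rodents can gain such cells, and inguinal fat is the depot best known for it. The other genes of the list serve the same cells: Cidea at the lipid droplet, Elovl3 in fatty acid elongation, Cox7a1 and Cox8b in the respiratory chain, Dio2 in thyroid hormone activation, and Kcnk3 and Otop1 as channels of the membrane.

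Promoter sequences of 4 of these genes are shown because, besides Ucp1 itself, Cox7a1, Cox8b and Otop1 had the smallest p for a slope on Ucp1 among members with a printed promoter, as described further on. RefSeq promoters on GRCm38.p6 were at hand for 7 of the 10 listed genes. Each run gives the 250 bases before the annotated start, 5′ to 3′ on the strand of the gene, at chr8:83290098-83290347 (plus strand) for Ucp1, chr7:30183921-30184170 (plus strand) for Cox7a1, chr7:140900447-140900696 (minus strand) for Cox8b and chr5:38277154-38277403 (plus strand) for Otop1. Capitals mark matches, on either strand, to any of 6 motifs: the nuclear receptor hexamer AGGTCA, the estrogen-related receptor site CAAGGTCA, whose last letters are that hexamer, the core TGACGT of the cAMP response element, the TATA box core TATAAA, the CCAAT box and the NRF1 site.
Ucp1: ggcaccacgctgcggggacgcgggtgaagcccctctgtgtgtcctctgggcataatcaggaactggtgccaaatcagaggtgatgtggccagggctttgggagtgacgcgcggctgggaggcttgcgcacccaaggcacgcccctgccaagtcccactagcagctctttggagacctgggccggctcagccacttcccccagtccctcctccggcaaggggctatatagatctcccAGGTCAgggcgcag
Cox7a1: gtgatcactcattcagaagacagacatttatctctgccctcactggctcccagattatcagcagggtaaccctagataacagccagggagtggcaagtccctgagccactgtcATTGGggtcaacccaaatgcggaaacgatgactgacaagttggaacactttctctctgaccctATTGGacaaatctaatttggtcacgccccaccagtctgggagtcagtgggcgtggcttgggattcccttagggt
Cox8b: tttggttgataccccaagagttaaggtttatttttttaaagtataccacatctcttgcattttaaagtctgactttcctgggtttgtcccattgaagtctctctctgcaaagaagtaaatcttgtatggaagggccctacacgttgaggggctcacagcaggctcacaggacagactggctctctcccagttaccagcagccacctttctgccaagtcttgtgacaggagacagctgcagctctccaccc
Otop1: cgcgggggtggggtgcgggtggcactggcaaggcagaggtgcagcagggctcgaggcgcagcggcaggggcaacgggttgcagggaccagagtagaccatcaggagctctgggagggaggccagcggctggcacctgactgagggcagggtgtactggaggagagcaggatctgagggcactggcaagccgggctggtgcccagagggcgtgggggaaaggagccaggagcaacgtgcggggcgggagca
The Ucp1 window held 1 match to AGGTCA, 14 bases before the start, and 14.0% of all 32851 promoter windows of this length held at least 1. The Cox7a1 window held 2 matches to the CCAAT box, 74 and 137 bases before the start, a motif found in 33.8% of windows. Neither the Cox8b nor the Otop1 window held any of the 6 motifs. A match of this kind describes letters and is no evidence of binding.

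The tissue carried the markers of mature adipocytes, and 2 arrays stood apart in genes of muscle or liver. All 11 measured genes of mature adipocytes, such as Adipoq, had a mean of 10.8 or more, and a score over them (the mean log2 deviation of the list's genes from their mean over the 10 mice) lay between 0.00 and 0.10 in FF mice and between -0.08 and 0.03 in VV mice. The skeletal muscle score, over 26 genes, was 1.57 in FF replicate 1 and between -0.43 and 0.12 in the other 9 mice. Over 17 genes, the liver score was 3.53 in VV replicate 1, 0.42 in VV replicate 2 and between -0.71 and -0.29 in the other 8 mice. Leukocyte genes lay lower in FF mice, with scores from -0.44 to -0.03 against 0.10 to 0.48 in VV mice over 14 genes, and 1 of the 14, Ptprc, passed an adjusted p of 0.05 in limma, against 0.753% of all genes. At an unadjusted p under 0.05, 13 of the 14 were lower in FF, against 6.18% of all genes. In bulk tissue, fewer cells of a type and less RNA per cell cannot be told apart. The array medians were 7.15 to 7.17 in FF mice and 7.18 to 7.21 in VV mice.

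Ucp1 was the member with the widest separation between genotypes. Its log2 intensity was 10.17, 11.61, 10.70, 12.09 and 11.02 in FF mice 1 to 5, against 6.91, 8.06, 7.73, 6.22 and 6.86 in VV mice 1 to 5. Every FF mouse lay above every VV mouse, with a gap of 2.10 between FF replicate 1 and VV replicate 2. FF mice averaged 11.12 ± 0.76, against 7.16 ± 0.74 for VV (SD, n = 5 each). The difference, FF minus VV, was 3.96 ± 0.41 (SE), a ratio of 15.6 with an interval from 8.40 to 29.0. Mice of the same genotype also differed: the highest was 3.8 times the lowest among FF mice and 3.6 times among VV mice.

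Ucp3, an uncoupling protein best known from skeletal muscle and also present in brown fat, separated the genotypes much less. Its values were 9.07, 9.23, 8.53, 9.43 and 9.29 in FF mice, against 8.39, 8.54, 8.83, 8.06 and 8.83 in VV mice. The groups overlapped, because FF replicate 3 lay below 3 of the VV mice. The difference was 0.58 ± 0.19 (SE), 1.49-fold with an interval from 1.13 to 1.98. FF replicate 1, which had the most muscle RNA, lay above 1 of the other FF mice only, and without it the difference was 0.59.

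Cidea, a protein that enlarges lipid droplets in brown fat, followed Ucp1 in the size of its separation. FF mice had 9.59, 10.45, 9.40, 11.20 and 10.33, against 7.17, 8.04, 7.97, 6.23 and 6.78 in VV mice. The groups were apart by 1.36 at their nearest mice. The difference was 2.96 ± 0.41 (SE), 7.77-fold with an interval from 4.18 to 14.4. Its relative Cidec, a lipid droplet protein of white adipocytes, was nearly level: the FF mean was 13.48 ± 0.08, against 13.49 ± 0.06 for VV (SD over 5 mice), a difference whose interval ran from -0.12 to 0.10 and whose sign turned under some alternatives.

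Elovl3, an elongase of very long-chain fatty acids that is induced by cold in brown fat, was high in 1 FF mouse in particular. Its values were 6.12, 6.65, 6.52, 8.01 and 6.09 in FF mice, against 5.56, 5.21, 5.24, 5.36 and 5.44 in VV mice. All VV mice lay within 0.35 of each other, below the 25th percentile of gene means (5.99), while FF mice spread over 1.92. The groups did not overlap, and the difference was 1.32 ± 0.31 (SE), 2.49-fold with an interval from 1.56 to 3.98. It was 0.98 without FF replicate 4.

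Cox7a1 and Cox8b encode the isoforms of their cytochrome c oxidase subunits that are used in muscle, heart and brown fat. Cox7a1 had 9.84, 10.58, 9.60, 11.62 and 10.93 in FF mice, against 8.11, 8.25, 8.55, 7.32 and 8.08 in VV mice. Cox8b had 11.60, 11.94, 11.20, 12.60 and 12.21 in FF mice, against 10.36, 10.48, 10.37, 8.61 and 10.08 in VV mice. Neither gene overlapped between the genotypes, and VV replicate 4 was the lowest mouse for both. The difference was 2.45 ± 0.36 (SE) for Cox7a1, 5.46-fold with an interval from 3.15 to 9.47. For Cox8b it was 1.93 ± 0.37 (SE), 3.81-fold with an interval from 2.18 to 6.66. Both genes are expressed in muscle. FF replicate 1, with its muscle score of 1.57, lay above only FF replicate 3 in its group for each of them. Without that mouse the differences were 2.62 for Cox7a1 and 2.01 for Cox8b, and without FF replicate 1 and VV replicate 1 together they were 2.63 and 2.10.

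Dio2, the deiodinase that makes active thyroid hormone inside brown adipocytes, lay in the lower range of the arrays in every mouse. Its values were 6.11, 6.49, 6.15, 6.39 and 6.21 in FF mice, against 6.06, 6.12, 6.10, 6.14 and 6.10 in VV mice. VV mice were within 0.08 of each other, and FF replicate 1 lay below 2 of them, so the groups overlapped. The difference was 0.17 ± 0.07 (SE), 1.12-fold.

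Kcnk3, a potassium leak channel that sets the membrane potential of thermogenic adipocytes, had 9.83, 9.95, 9.41, 9.92 and 9.66 in FF mice, against 9.37, 9.32, 9.28, 9.09 and 9.43 in VV mice. FF replicate 3 lay just below VV replicate 5, and the other FF mice lay above all VV mice. The difference was 0.46 ± 0.10 (SE), 1.37-fold with an interval from 1.17 to 1.61. Otop1, a proton channel of the otopetrin family that is also abundant in brown fat, had 9.87, 10.65, 9.33, 10.81 and 10.26 in FF mice, against 8.49, 9.24, 8.85, 7.72 and 8.93 in VV mice. Its groups were separated by 0.09 only, between FF replicate 3 and VV replicate 2. The difference was 1.54 ± 0.32 (SE), 2.91-fold with an interval from 1.78 to 4.75.

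**Figure D1:**
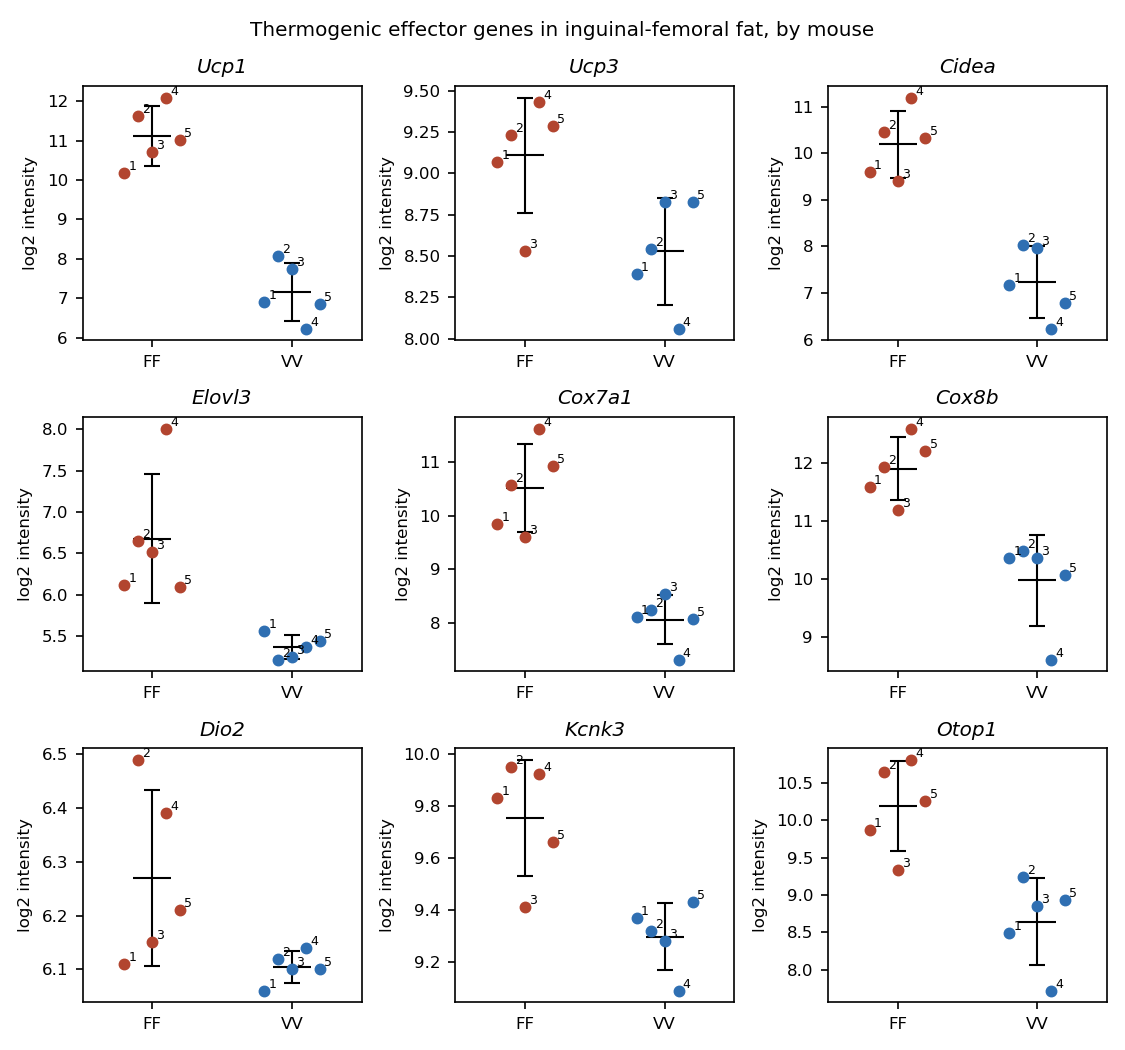
Log2 intensity (y axis, a separate scale for each gene) of the 9 measured genes in FF mice (left, red) and VV mice (right, blue). Each point is 1 mouse with its replicate number, horizontal bars are means and error bars are SD (n = 5 each); Ucp1 shows a gap of 2.10 between the groups, while Ucp3, Dio2 and Kcnk3 overlap.

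All 9 genes had a higher mean in FF than in VV, with a median difference of 1.54, against 0.0008 over all genes. In 6 of the 9 every FF mouse lay above every VV mouse, as in 3.36% of all genes. An adjusted p under 0.05 over all genes in limma was reached by 4, Ucp1, Cidea, Cox7a1 and Cox8b, against 0.753% of all genes in either direction. Neither count is evidence for the list and nothing is read from these shares, since the genes were chosen with this contrast known. Leaving out 1 mouse at a time changed this number. Ucp1 alone passed when FF2, FF5 or VV5 (numbers are replicates) was left out, and Ucp1 and Cidea passed when VV2 or VV4 was. Of the 9 genes, 3 passed without FF1 or VV3, and 7 without FF3. Without FF4 the number stayed at 4, but with Elovl3 in place of Cox8b. Calls over all genes changed as well, from 148 to 12, 21 and 17 without FF2, FF5 and VV5. They were 7 and 18 without VV2 and VV4, 17 and 74 without FF1 and VV3, 59 without FF4, and 379 without FF3. No filter on dim genes was applied; all 9 lay above the 25th percentile of gene means and 7 above the median of 7.53, Elovl3 and Dio2 being the other two.

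Several of these genes shared their highest and lowest mouse within a genotype. FF replicate 4 was the highest FF mouse for 7 of the 9 genes, and FF replicate 2 for Dio2 and Kcnk3. FF replicate 3 was the lowest FF mouse for 6 genes. In the VV group, VV replicate 4 was the lowest mouse for 7 genes, all but Elovl3 and Dio2. The spread inside a genotype was wide for most members: the within-genotype SD was 0.75 for Ucp1 and for Cidea, above that of 99.1% of all genes. It was above that of at least 96.2% of genes for 7 members, and of 85.1% for Kcnk3 and 57.9% for Dio2. FF replicate 4 was also the highest FF mouse for the liver score (-0.29), the leukocyte score (-0.03) and the score of classical brown depot markers (0.25), while its muscle score was -0.12 and its adipocyte score 0.00. VV replicate 4 had a liver score of -0.30, the lowest leukocyte score of its group (0.10), a brown depot score of -0.19, a muscle score of -0.22 and an adipocyte score of -0.06. The part of these in the levels of the members was not tested.

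**Figure D2:**
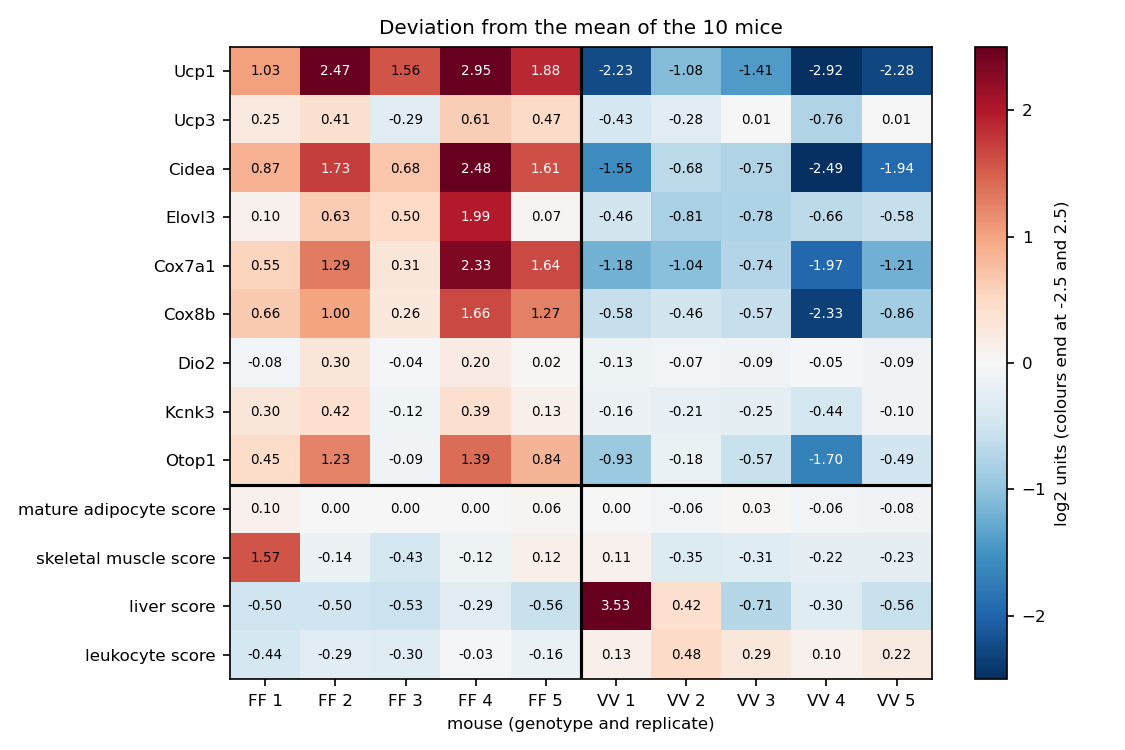
Deviation of each mouse (columns, FF left of VV) from the mean of the 10 mice, in log2 units, for the 9 genes (upper rows) and for 4 marker scores (lower rows). Ucp1, Ucp3, Cidea, Cox7a1, Cox8b and Otop1 share their highest FF mouse, replicate 4, and their lowest VV mouse, replicate 4. The muscle score stands out in FF replicate 1 (1.57) and the liver score in VV replicate 1 (3.53).

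Whether these genes also go together among mice of one genotype was asked in a fit that takes out the genotype means. How mice vary together belongs to the description of the list, which was chosen with results known, so the p-values of the members here are not independent support either. For every gene but Ucp1, a limma model held genotype and the Ucp1 level as its deviation from the genotype mean, and the slope gives log2 units of the gene per log2 unit of Ucp1 within genotype (10 mice). Slopes were positive for all 8 other members, against 51.1% of all genes. An unadjusted p under 0.05 was reached by 5 of the 8, all with positive slopes, against 5.28% of the 19658 genes in either direction and 3.42% with a positive slope. None of the 8, and none of all genes (0% called), passed an adjusted p of 0.05 in limma.

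Cidea had the steepest slope of the members, 0.95 ± 0.11 (SE) with an interval from 0.71 to 1.18. It ranked 1 by p among all 19658 genes, with an adjusted p of 0.0910 in limma, and its slope stayed between 0.90 and 1.06 whichever mouse was left out. Its adjusted p ran from 0.0544 to 1.00 over those leave-outs. It passed the threshold in 3 alternatives: 0.00735 with the muscle score of each mouse as a covariate, 0.0345 with array weights and 0.0372 without genes below the median of intensity.

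The next steepest slopes were those of Cox7a1, Cox8b and Otop1. The slope was 0.72 ± 0.17 (SE) for Cox7a1, 0.69 ± 0.18 for Cox8b and 0.66 ± 0.14 for Otop1, each with an adjusted p of 0.874 in limma. Their ranks by p among all genes were 15 for Cox7a1, 50 for Cox8b and 9 for Otop1. The Cox8b slope was 0.44 without VV replicate 4, the mouse with the lowest Cox8b. With the muscle score as a covariate the slopes were 0.82 for Cox7a1, 0.90 for Cox8b and 0.82 for Otop1.

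The remaining members had shallower slopes. Ucp3 had 0.27 ± 0.12 (SE) with an interval from 0.01 to 0.53, the fifth of the 5 members under an unadjusted p of 0.05. Elovl3 had 0.37 ± 0.21, which became 0.01 without FF replicate 4. Kcnk3 had 0.11 ± 0.07 and Dio2 0.10 ± 0.05, with intervals that reach from -0.06 to 0.28 and from -0.01 to 0.20. Set beside these slopes, the genotype difference of each gene as a share of that of Ucp1 was 0.75 for Cidea, 0.62 for Cox7a1, 0.49 for Cox8b, 0.39 for Otop1, 0.33 for Elovl3, 0.15 for Ucp3, 0.12 for Kcnk3 and 0.04 for Dio2.

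**Figure D3:**
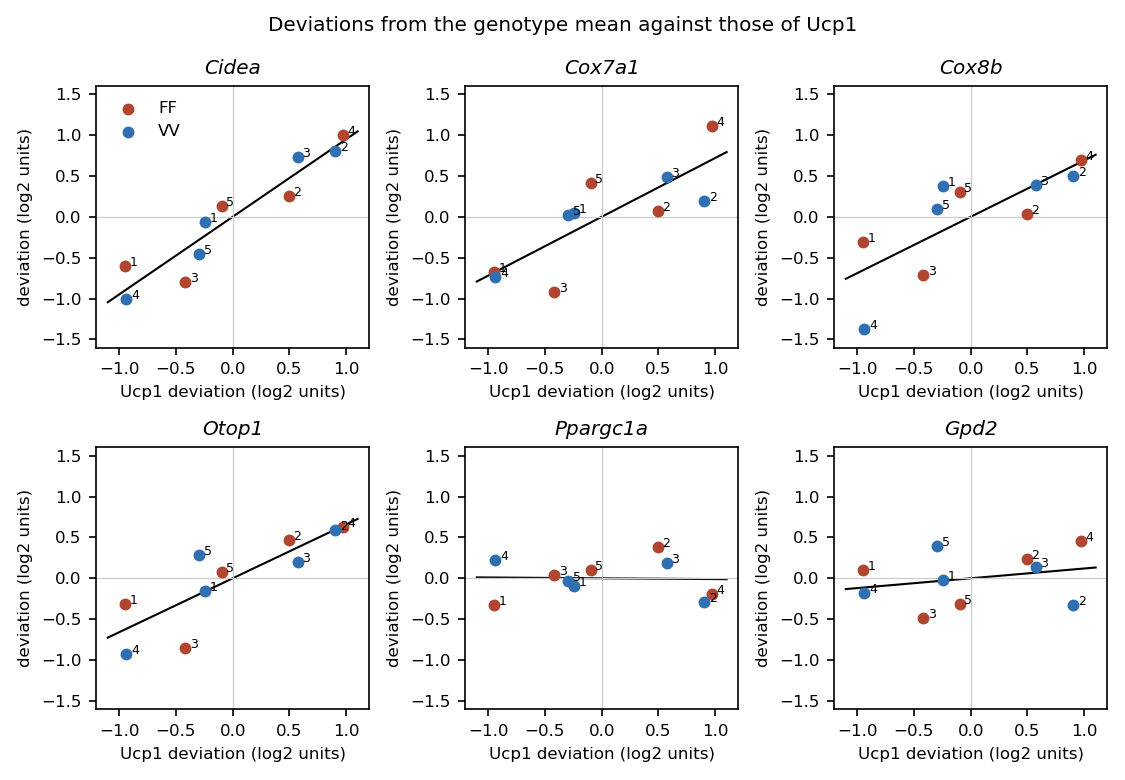
Deviation of a gene from its genotype mean (y axis) against that of Ucp1 (x axis), both in log2 units, for FF (red) and VV mice (blue), numbered by replicate; lines are the fitted slopes. The slope is 0.95 for Cidea, with points of both groups near the line, 0.72 for Cox7a1, 0.69 for Cox8b and 0.66 for Otop1 with more scatter, -0.01 for Ppargc1a and 0.12 for Gpd2. The members shown are those with the steepest slopes. Ppargc1a and Gpd2 are not members, and Acot11, another gene outside the list, had a slope of 0.48 (not shown).

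Genes outside the list that came nearest to Ucp1 by p in the same fit came from varied families. With positive slopes these were Ccr1, a chemokine receptor (0.22), Bcl2a1c, a relative of the survival factor BCL2 (0.40), Smc2, a condensin subunit (0.27), Esf1, a nucleolar protein (0.16), Cdkl3, a kinase (0.17), and Asb7, a ubiquitin ligase component (0.22). With negative slopes they were Olfr1274, an olfactory receptor (-0.16), Mir30c-1, a microRNA gene (-0.16), and Rxfp2, a relaxin family receptor (-0.44). The adjusted p was 0.874 for all 9 in limma. None of them differed between FF and VV past the threshold, their adjusted p running from 0.184 to 0.886. Deptor, the gene named in the title of the series, had a slope of 0.04 ± 0.04 (SE) on Ucp1 within genotype, with an interval from -0.06 to 0.13. Between genotypes Deptor did pass the threshold, with a difference of 0.55 ± 0.06 (SE; adjusted p = 0.00553 in limma).

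Relatives of the members, from families that are mostly expressed outside thermogenic fat too, were then compared between genotypes. None of the 46 measured genes in 4 lists passed an adjusted p of 0.05 in limma, against 0.753% of all genes. At an unadjusted p under 0.05, 11 were higher and 1 was lower in FF, against 10.2% and 6.18% of all genes. Among the leave-outs, 4 relatives passed without FF replicate 3 and 1 without VV replicate 1, where 379 and 163 of all genes passed. No relative had a slope on Ucp1 within genotype with an unadjusted p under 0.05.

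Among relatives, none of 13 measured cytochrome c oxidase subunits passed the test. All 13 had a positive difference, with a median of 0.21, and 8 were higher at an unadjusted p under 0.05, against 10.2% of all genes. The widely expressed partner isoforms of the members had small differences: Cox7a2 was 10.06 ± 0.15 in FF and 9.75 ± 0.18 in VV, and Cox8a was 13.03 ± 0.08 in FF and 12.82 ± 0.13 in VV (SD over 5 mice; adjusted p = 0.128 and 0.142 in limma). Cox6a1, another subunit isoform, differed by 0.40 and Cox5a, a nuclear-encoded subunit, by 0.63 (adjusted p = 0.0682 and 0.0742). Cox7a2l, a factor of respiratory supercomplexes, differed by 0.06 with an interval from -0.08 to 0.20.

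Of 8 measured mitochondrial carriers, relatives of the uncoupling proteins, 7 had a positive difference and the median was 0.12. Slc25a20, which brings acylcarnitines into mitochondria, differed by 0.51 (adjusted p = 0.0650), and Slc25a4, an adenine nucleotide translocator, by 0.18 (adjusted p = 0.118). Among 10 other CIDE proteins, elongases and deiodinases the median was -0.04. Elovl6, which lengthens saturated fatty acids in lipogenesis, differed by 0.69 (adjusted p = 0.158), and Dio3, which inactivates thyroid hormone, by -0.02 with an interval from -0.22 to 0.19 and a sign that turned under some alternatives.

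Elovl2 and Dio1, both known from liver, show how 1 mouse can set such a value. Elovl2 was 9.45 in VV replicate 1 and at most 5.68 in every other mouse, and Dio1 was 7.04 there and at most 5.11 elsewhere. Cideb of the same list, named after its values were seen, was 10.43 there and at most 8.37 elsewhere. VV replicate 1 had the liver score of 3.53. The difference of Elovl2 was -0.95 with that mouse and -0.15 without it; that of Dio1 was -0.43 with it and -0.03 without it. The other 15 measured relatives, leak potassium channels and otopetrins, ranged from -0.15 to 0.02, with Kcnk13 at -0.14 (adjusted p = 0.187) and Kcnk6 at -0.15 (adjusted p = 0.388).

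**Figure D4:**
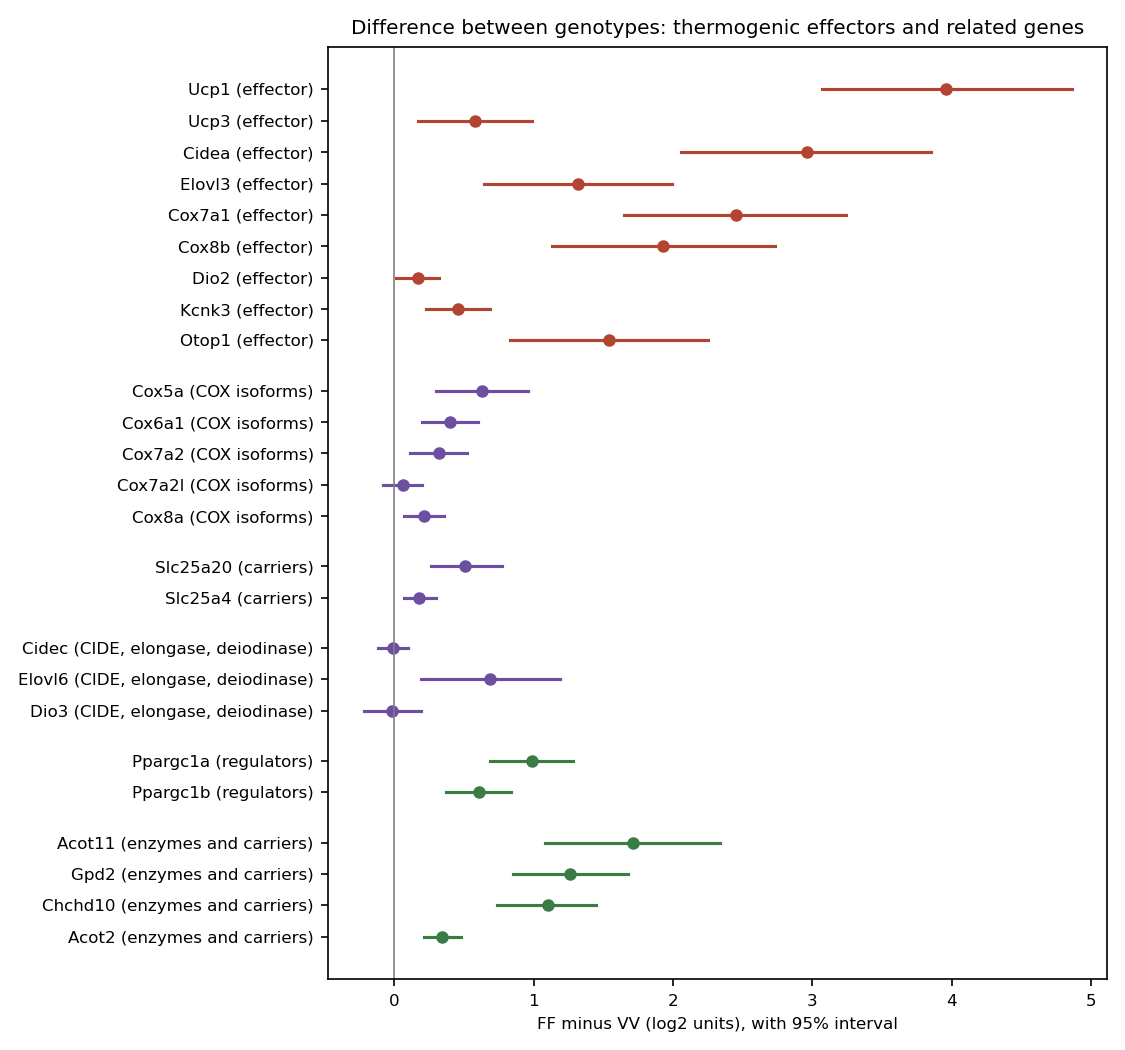
Difference FF minus VV in log2 units (points) with its 95% interval (lines) for the 9 effector genes (red), relatives from the same families (purple) and other genes of the thermogenic pathway (green). Ucp1, Cidea and Cox7a1 exceed 2. The partner isoforms Cox7a2 (0.32, interval 0.11 to 0.52) and Cox8a (0.21, 0.07 to 0.36) differ less, with intervals above 0. The interval of the relative Cidec (-0.01) includes 0.

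Other genes of the thermogenic pathway were taken from 4 lists with 72 measured genes. In limma 7 rose in FF and none fell, against 0.753% of all genes called, and 32 were higher and 2 lower at an unadjusted p under 0.05, against 10.2% and 6.18% of all genes. Leaving out FF1, FF5 or VV5 left 1 of them past the threshold, leaving out FF2 or VV4 left 2, and leaving out VV2 left 0. Over all genes, 17, 21 and 17 passed without FF1, FF5 and VV5, 12 and 18 without FF2 and VV4, and 7 without VV2. With FF1 and VV1 both removed, 3 of the pathway genes passed, against 28 of all genes. VV replicate 1, with its liver score of 3.53, stood above the other VV mice in several pathway genes. It had 10.98 for Slc27a2 and 9.29 for Pank1, against at most 7.04 and 7.92 in the other VV mice. For Acot4 and Ppara it had 8.68 and 9.56, against at most 7.57 and 8.74. These genes are named after their values were seen, and the part of liver RNA was not tested. Within genotype, 7 of the 72 had a slope on Ucp1 with an unadjusted p under 0.05, against 5.28% of all genes. Of the 7, 6 were positive, against 3.42% of all genes, and all 6 were in the list of enzymes and carriers.

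Among enzymes and carriers abundant in thermogenic fat, 5 of 20 measured genes rose, against 0.753% of all genes called, with a list median of 0.46. At an unadjusted p under 0.05 in limma, 15 were higher and 1 lower, against 10.2% and 6.18% of all genes. Acot11, a thioesterase of brown fat, rose by 1.71 ± 0.28 (SE; adjusted p = 0.0352), and Gpd2, the mitochondrial enzyme of the glycerol phosphate shuttle, by 1.26 ± 0.19 (adjusted p = 0.0273). Chchd10, a protein of the mitochondrial intermembrane space, rose by 1.1 ± 0.16 (adjusted p = 0.0267) and Acot2, a mitochondrial thioesterase, by 0.34 ± 0.06 (adjusted p = 0.0352). The fifth, Acadvl, the very long-chain acyl-CoA dehydrogenase, rose by 0.79 (adjusted p = 0.0495) and is named because it completes the count. Within genotype, Acot11 had a slope of 0.48 ± 0.16 on Ucp1 (unadjusted p = 0.0146 in limma), while Gpd2 had 0.12 ± 0.14 and Chchd10 0.15 ± 0.12. Acot11 was 1 of 6 genes of this list with a positive slope at an unadjusted p under 0.05. Its level was 9.10 and 9.46 in FF replicates 2 and 4, at most 8.08 in the other FF mice, and 6.60 to 6.91 in VV mice.

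Of 24 transcriptional regulators, 2 rose, against 0.753% of all genes called, and the list median was 0.16. A positive difference was found for 22. At an unadjusted p under 0.05 in limma, 12 were higher and 0 lower, against 10.2% and 6.18% of all genes. Ppargc1a, the coactivator that drives mitochondrial biogenesis and Ucp1 transcription, rose by 0.99 ± 0.14 (SE; adjusted p = 0.0219), and its relative Ppargc1b rose by 0.61 ± 0.11 (adjusted p = 0.0352). Ppargc1a had 8.14, 8.84, 8.50, 8.27 and 8.56 in FF mice, against 7.38, 7.19, 7.66, 7.70 and 7.44 in VV mice. Its groups did not overlap. VV replicate 4, the lowest VV mouse for Ucp1, was the highest VV mouse for Ppargc1a, while FF replicate 1 was the lowest FF mouse for both genes. The slope of Ppargc1a on Ucp1 within genotype was -0.01 ± 0.11 (SE), and that of Ppargc1b was 0.10 ± 0.08.

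None of 17 measured genes of cAMP signalling passed the test, and 5 were higher at an unadjusted p under 0.05, against 10.2% of all genes. The list of 24 genes also covered adrenergic receptors, but none of these was among the 17 measured. Lipe, the hormone-sensitive lipase, averaged 13.15 ± 0.03 in FF, against 13.03 ± 0.04 in VV (SD over 5 mice; adjusted p = 0.152 in limma), and Adcy3, an adenylyl cyclase, differed by 0.22 (adjusted p = 0.191). In creatine and calcium cycling, which produce heat without UCP1, none of 11 genes passed and the median was -0.01. Gatm, the first enzyme of creatine synthesis, differed by -0.39 (adjusted p = 0.0966) and Slc6a8, the creatine transporter, by -0.15 (adjusted p = 0.313).

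Markers used to tell brown from beige fat were compared last. Of 7 markers of classical brown depots none passed the test, and Zic1 and Lhx8, transcription factors of that lineage, differed by 0.02 and 0.00, with means of 4.93 and 6.33. The median difference of that list was 0.02. Its score lay between 0.05 and 0.25 in FF mice and between -0.21 and -0.01 in VV mice. Mpzl2 and Pdk4 of the list differed by 1.02 and 0.94 (adjusted p = 0.0532 and 0.0617 in limma), and Epsti1 by -0.33 (adjusted p = 0.161). Pdk4 was also counted among the enzymes and carriers above. Of 8 markers of beige adipocytes none passed either, and their median difference was 0.00, with scores from -0.01 to 0.08 in FF mice and from -0.12 to 0.05 in VV mice. P2rx5 of the beige list differed by 0.52 (adjusted p = 0.0628). These 4 genes are named after their values were seen. Sympathetic nerve and Schwann cell markers had no member past the test among 8, with scores from -0.14 to 0.26 in FF mice and from -0.13 to 0.08 in VV mice.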

How the data were processed

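Fat of 5 FF and 5 VV mice was measured on 1 one-colour array per mouse. The deposited values are log2 intensities per probe set, which the authors normalised and summarised with RMA, per the submitters' processing notes; the sources used here do not state its version. Of 35557 probe sets, 25689 had a value on all 10 arrays, from 3.56 to 14.2. Those naming 1 gene (20777) were kept; 232 named several and 4680 were not listed in the probe table. The probe set with the highest mean stood for a gene, giving 19659 genes. Symbols came from RefSeq on GRCm38.p6. Precision is limited by how many arrays there were.

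The genotype contrast, FF minus VV, was fitted by limma 3.58.1 (R 4.3.3; two-sided, no covariates); p-values were adjusted after Benjamini and Hochberg across all genes, with 0.05 as the threshold. A further limma fit added the Ucp1 level, centred within genotype. Both were tested on simulated data. Figures used matplotlib 3.10.9. Replicate numbers were not treated as pairs. Deviations of same-numbered mice correlated from -0.26 to 0.10 over genes. Only replicate 1 correlated more with its own number (0.10) than with its best other number (0.06). Such correlations cannot decide whether mice were matched.

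The members, lists, tests and alternatives were chosen with earlier results of these data known. Named are all members, up to 4 genes past the threshold of each list (the 2 with the smallest p where fewer pass), partner isoforms, the genes with the smallest p on the Ucp1 slope (6 positive, 3 negative, no predicted genes), Deptor and leading muscle and liver markers. Alternatives were leaving out mice, a replicate block, other normalisations, filters, probe summaries, variance models and thresholds.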

Additional observations from a re-analysis of the deposited data

Results flagged for a closer look

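Values far from the other 4 mice of their genotype were looked for with Dixon's criterion at 95%, which chance meets in about 1 of 20 groups; 5 of 36 groups met it. Cox8b was lowest in VV replicate 4 at 8.61, with the other VV mice at 10.08 or above. The skeletal muscle score was highest in FF replicate 1 at 1.57, and in the VV group it was highest in VV replicate 1 at 0.11. The liver score was highest in VV replicate 1 at 3.53, and in the FF group it was highest in FF replicate 4 at -0.29. Without FF replicate 1 and VV replicate 1 together the difference of Ucp1 was 4.14 and that of Cidea 3.09.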

How the results depend on the processing

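All 9 genes kept a higher mean in FF under each of the alternatives run, and 138 of 178 values stayed on the same side of the threshold, 27 fell short of it and 13 newly passed it. The number of the 9 past the threshold, 4 in the reported fit, ranged from 1 to 7 over the leave-outs. It was 0 with the replicate block, 0 with an unmoderated linear model, 7 with arrays centred on their median, 7 with array weights and 7 at an adjusted p of 0.10. Over all genes 148 passed in the reported fit, 7 to 379 over the leave-outs, 5 with the replicate block and 7 with the unmoderated model. The all-gene number was 602 with centred arrays, 383 with array weights and 28 without FF replicate 1 and VV replicate 1 together. Without genes below the median it was 355 of 9830. Relatives past the threshold, 0 as reported, ranged from 0 to 4 over the leave-outs and numbered 5 with centred arrays, 3 without genes below the median and 3 with array weights. Pathway genes, 7 as reported, ranged from 0 to 10 over the leave-outs and numbered 0 with the replicate block, 14 with centred arrays, 12 with array weights, 3 without FF replicate 1 and VV replicate 1 together and 0 with the unmoderated model. The replicate numbers are not known to pair mice, so the block is only an alternative. Genes going with Ucp1 within genotype, 0 as reported, numbered 1 with the replicate block (Cox8b), and 1, Cidea, without genes below the median, with array weights, with the muscle score as covariate and at an adjusted p of 0.10. The sign of the Cidec difference turned: -0.01 as reported, from -0.02 to 0.02 over the leave-outs and 0.03 with centred arrays. Dio3 ranged from -0.08 to 0.04 over the leave-outs, with 0.01 after quantile normalisation and 0.02 with centred arrays. The cause was not tested. Leave-outs that keep 9 mice estimate the spread from fewer arrays. Differences near the dim end, as for Dio2 and Elovl3, are limited by signal over background.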
